A study of Homo sapiens with 12 samples.

Results

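The genes GNAI1, CD36, GNAT3, SEMA3C, HGF, CACNA2D1, PCLO, SEMA3E, SEMA3A and SEMA3D lie in this order on 7q21, on the centromere side of ABCB1, from base 79768028 to base 85187056 of chromosome 7 (GRCh38, coordinates of GENCODE 44). They were matched by symbol to the Ensembl identifiers of both deposited tables and make up 10 of the 60616 genes listed there. The members were chosen by their measured levels, the increase of the interval over Du145-P in the Du145-CbzR libraries, so every value that involves the Du145-CbzR libraries is given as a description, with no test. The 10 genes are all the protein-coding genes annotated in the interval. The other 33 annotated genes there are pseudogenes, non-coding RNAs and unclassified transcripts, none of them passed the filter on low counts, and the most abundant had 14.7 estimated counts summed over the libraries of the 3 lines.

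Du145 is a prostate cancer cell line, and Du145-CbzR and Du145-DtxR are its sublines resistant to cabazitaxel and docetaxel, the taxanes on which they were selected. Survivors were exposed for 72 h per dose, with doses doubled between 1 nM and 125 nM, and Du145-P is the parental line passaged beside them without drug. RNA was sequenced from 2 libraries each of Du145-CbzR, Du145-DtxR and Du145-P. In a second experiment, Du145-DtxR cells received siRNA against BRPF1 (siBRPF1, 3 libraries) or control siRNA (siControl, 3 libraries), the medium was changed after 24 h, and RNA was taken 48 h later, so all 6 of these libraries carry the docetaxel-resistant background. The labels speak of resistant clones and do not say how many clones a line holds, nor whether the replicates were separate cultures, so p-values measure only the spread between these libraries. Library totals were 27512386 to 30593578 estimated counts for the lines and 16667821 to 17306262 for the siRNA experiment. All 5 epithelial markers had counts in every group (EPCAM, CDH1, KRT8, KRT18 and KRT19, together 448.5 to 458.4 library-size scaled counts, CPM, in Du145-CbzR, 528.9 to 547.6 in Du145-DtxR and 424.5 to 448.1 in Du145-P). The fibroblast, endothelial, immune and adipocyte lists each summed to at most 12.5 CPM in any library of the lines.

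The interval holds genes of several unrelated functions. SEMA3A, SEMA3C, SEMA3D and SEMA3E encode class 3 semaphorins, secreted guidance cues that act on cells through plexin receptors, most of them with a neuropilin as the binding partner, whereas SEMA3E can bind plexin D1 directly. GNAI1 encodes an inhibitory G alpha subunit that lowers cyclic AMP, and GNAT3 encodes gustducin, the related subunit of taste receptor cells. CD36 is a scavenger receptor that takes up fatty acids, HGF is the ligand of the receptor MET, CACNA2D1 is an auxiliary subunit of voltage-gated calcium channels, and PCLO (piccolo) is a scaffold of the presynaptic active zone. ABCB1 itself encodes P-glycoprotein, an efflux pump that exports taxanes, and BRPF1 is a bromodomain scaffold of histone acetyltransferase complexes.

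The bases in front of the first listed transcription start are shown for the members that were highest in Du145-CbzR against both other lines and for SEMA3E, which went the other way. RefSeq (GRCh38.p14) gave a start for 9 of the 10 genes, and SEMA3A was not matched. Each sequence is the 250 bases before the start, on the gene's own strand, with CG dinucleotides in capitals. The windows are chr7:80134581-80134830 on the plus strand and chr7:80922390-80922639, chr7:83162885-83163134, chr7:85187057-85187306 and chr7:83649140-83649389 on the minus strand. GNAI1, PCLO, SEMA3D and SEMA3C are shown because each was highest in Du145-CbzR, the line by which the interval was chosen. Their start windows can be set beside each other. In Du145-DtxR against Du145-P, SEMA3D was higher whereas GNAI1, PCLO and SEMA3C were lower.
GNAI1: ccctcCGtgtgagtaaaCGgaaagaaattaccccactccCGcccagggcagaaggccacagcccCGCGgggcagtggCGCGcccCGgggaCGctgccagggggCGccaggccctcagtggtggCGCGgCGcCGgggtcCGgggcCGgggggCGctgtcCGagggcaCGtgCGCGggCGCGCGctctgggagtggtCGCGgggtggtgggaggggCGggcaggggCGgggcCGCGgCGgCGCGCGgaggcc
PCLO: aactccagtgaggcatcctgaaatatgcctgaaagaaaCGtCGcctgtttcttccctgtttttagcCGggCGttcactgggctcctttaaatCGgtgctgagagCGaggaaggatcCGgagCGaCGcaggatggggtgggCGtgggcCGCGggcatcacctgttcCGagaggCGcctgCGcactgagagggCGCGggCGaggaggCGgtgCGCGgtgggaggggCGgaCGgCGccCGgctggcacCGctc
SEMA3D: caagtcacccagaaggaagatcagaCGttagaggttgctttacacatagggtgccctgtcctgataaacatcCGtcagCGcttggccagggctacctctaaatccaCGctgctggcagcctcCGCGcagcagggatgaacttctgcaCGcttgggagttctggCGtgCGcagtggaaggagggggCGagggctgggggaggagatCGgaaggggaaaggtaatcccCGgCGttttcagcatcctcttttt
SEMA3C: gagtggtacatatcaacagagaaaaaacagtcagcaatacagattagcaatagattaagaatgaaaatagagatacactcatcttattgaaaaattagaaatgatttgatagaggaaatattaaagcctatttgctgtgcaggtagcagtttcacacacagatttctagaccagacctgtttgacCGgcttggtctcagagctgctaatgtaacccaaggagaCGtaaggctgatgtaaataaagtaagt
SEMA3E: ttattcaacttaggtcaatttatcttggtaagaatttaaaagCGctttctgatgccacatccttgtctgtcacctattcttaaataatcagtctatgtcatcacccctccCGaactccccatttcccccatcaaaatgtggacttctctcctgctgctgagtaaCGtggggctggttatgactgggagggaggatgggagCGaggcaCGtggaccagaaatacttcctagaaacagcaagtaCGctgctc

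The window of GNAI1 held 34 CG dinucleotides, a number that 6.61% of the 27305 RefSeq gene start windows of the same length reached. That of PCLO held 26 (19.2% of windows held as many), that of SEMA3D 13 (46.4%), that of SEMA3E 6 (61.3%) and that of SEMA3C 2 (84.6%). The median over all windows was 11. CACNA2D1, not shown, held 27, HGF 6, and CD36 and GNAT3 held 2 each. On either strand, GGGCGG was found 3 times in the windows of GNAI1 and of CACNA2D1 and 1 time in that of PCLO, against 42.3% of all windows with at least 1. CACGTG was found 1 time each for GNAI1 and SEMA3E (6.49% of all windows), TATAAA was found for GNAT3 and CD36 only among the 9 (11.1% of all windows), and CCAAT for none (33.0% of all windows). Thus, by the first listed start, the members that were higher in Du145-CbzR had windows at both ends of the range of CG content. The other listed starts of GNAI1 and SEMA3C were not examined.

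In Du145-CbzR, 6 of the 7 members that passed the filter on low counts were above their Du145-P level and SEMA3E was far below it. The fitted log2 fold changes, from edgeR on counts scaled to library size by TMM (CPM in the values below), ran between -5.36 for SEMA3E and 2.75 for SEMA3D, with a median of 1.23 over the 7 against -0.01 over all 18218 genes tested. The call rule (adjusted p under 0.05) was passed by 50.7% of all genes in this comparison, 24.4% higher and 26.3% lower, and nothing is read from the members' count, since this comparison chose them. In bulk RNA, fewer cells expressing a gene and less RNA per cell cannot be told apart.

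**Figure D1:**
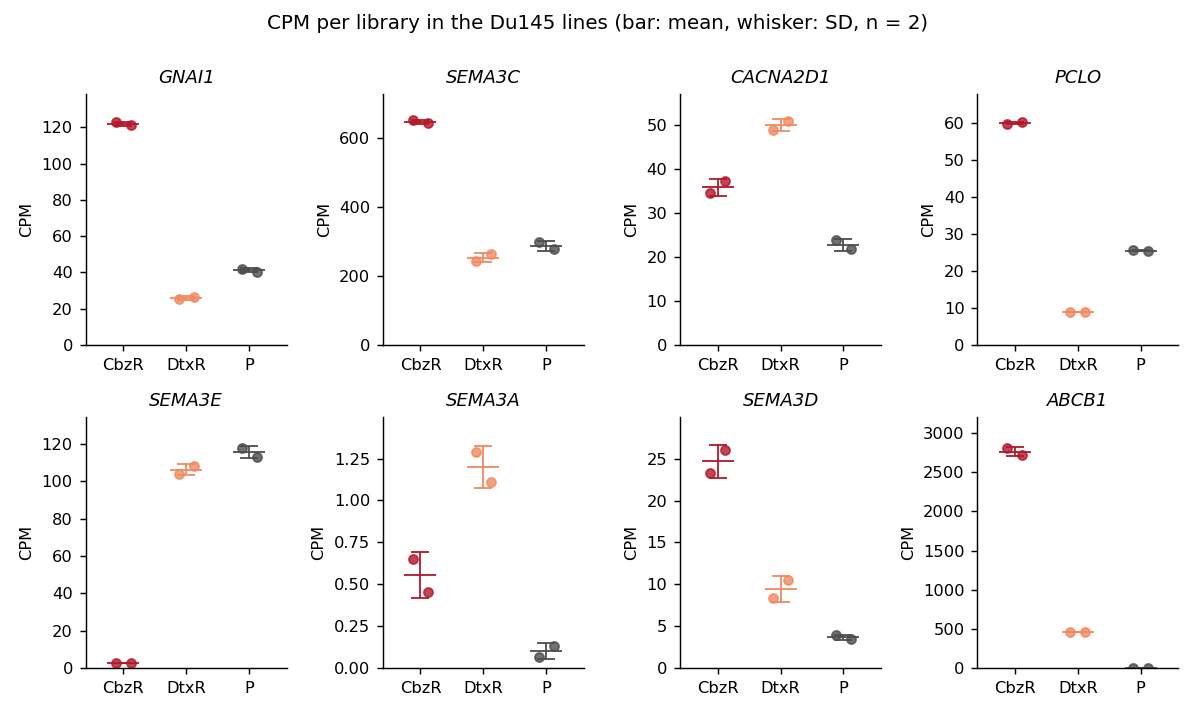
CPM per library (points), mean (bar) and SD (whisker, n = 2) of the 7 members that passed the filter and of ABCB1 in Du145-CbzR, Du145-DtxR and Du145-P, each panel on its own linear axis from 0. GNAI1, SEMA3C and PCLO are highest in CbzR and lowest in DtxR, SEMA3D falls in the order CbzR, DtxR, P, and SEMA3E is at 2.81 CPM in CbzR against over 100 CPM in the other lines.

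Among the semaphorins, SEMA3C was the most abundant. It was at 649.7 and 640.9 CPM in Du145-CbzR, against 242.8 and 262.0 CPM in Du145-DtxR and 296.8 and 276.3 CPM in Du145-P. Both Du145-CbzR libraries were above every other library, 2.25-fold over Du145-P (log2 1.17, SE 0.05) and 2.56-fold over Du145-DtxR (log2 1.35, SE 0.05).

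SEMA3D was at 23.3 and 26.0 CPM in Du145-CbzR, against 8.31 and 10.5 CPM in Du145-DtxR and 3.90 and 3.45 CPM in Du145-P. No 2 of the lines overlapped, and both resistant lines were above the parental one. The difference from Du145-P was 6.71-fold (log2 2.75, SE 0.13), and rank 111 from the top of the 18218 genes.

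SEMA3E ran against its neighbours. It had 86 and 87 counts (2.79 and 2.83 CPM) in Du145-CbzR, whereas Du145-DtxR had 2830 and 2929 counts (104.0 and 108.2 CPM) and Du145-P had 3622 and 3410 counts (117.6 and 113.1 CPM). Du145-CbzR was 41-fold below Du145-P (log2 -5.36, SE 0.08) and 37.7-fold below Du145-DtxR (log2 -5.24, SE 0.08), rank 114 from the bottom in the comparison with Du145-P. The genes on either side of it, PCLO and SEMA3A, both exceeded their Du145-P level in Du145-CbzR.

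SEMA3A was the least abundant of the 7. It had 20 and 14 counts (0.649 and 0.455 CPM) in Du145-CbzR, 35 and 30 counts (1.29 and 1.11 CPM) in Du145-DtxR and 2 and 4 counts (0.065 and 0.133 CPM) in Du145-P. It passed the filter on low counts only through the resistant lines, so its difference from Du145-P was in part set by the filter. The ratio of summed counts of Du145-CbzR to Du145-P was 2.49 on the log2 scale, with a 95% counting interval of 1.22 to 4.03.

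GNAI1 was at 122.9 and 121.2 CPM in Du145-CbzR, against 25.1 and 26.7 CPM in Du145-DtxR and 42.0 and 40.4 CPM in Du145-P. The 3 lines did not overlap, with Du145-CbzR at the top and Du145-DtxR at the bottom. Du145-CbzR was 2.96-fold above Du145-P (log2 1.57, SE 0.05) and 4.71-fold above Du145-DtxR (log2 2.24, SE 0.06).

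PCLO, the active zone scaffold, had the same order of lines. It was at 59.7 and 60.1 CPM in Du145-CbzR, against 8.82 and 8.79 CPM in Du145-DtxR and 25.6 and 25.3 CPM in Du145-P. The gap between the resistant lines was the widest among the 4 members with more in Du145-CbzR, 6.79-fold (log2 2.76, SE 0.07), and the gap to Du145-P was 2.35-fold (log2 1.23, SE 0.06).

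CACNA2D1 had another order. It was at 34.5 and 37.3 CPM in Du145-CbzR, against 49.0 and 50.9 CPM in Du145-DtxR and 23.8 and 21.8 CPM in Du145-P. Du145-CbzR thus lay between the other lines, 1.57-fold above Du145-P (log2 0.65, SE 0.07) and 1.39-fold below Du145-DtxR (log2 -0.48, SE 0.07).

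The remaining members were at or near 0. GNAT3 and HGF had no count in any of the 12 libraries. A total of 0 over a group allows up to 0.0487 CPM in Du145-CbzR, 0.0553 CPM in Du145-DtxR and 0.0492 CPM in Du145-P (3 counts over the group, counting error only). These are upper bounds for a gene without counts, not limits of detection. CD36 had 1 and 2 counts in Du145-CbzR, 1 and 0 counts in Du145-DtxR and 12 and 10 counts in Du145-P. It lay below Du145-P in all 4 resistant libraries, in the direction opposite to most of its neighbours, with a log2 ratio of -2.89 for Du145-CbzR (95% counting interval -5.27 to -1.15). GNAT3 lies inside the span of CD36 on the other strand, and whether the counting used strand is not given in the sources used here.

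Scaled to the length of each gene's canonical transcript, the order of levels changed with the line. SEMA3C was first in every group, at 132.4 CPM per kb in Du145-CbzR, 51.8 in Du145-DtxR and 58.8 in Du145-P. SEMA3E was second in Du145-DtxR (14.6 CPM per kb) and Du145-P (15.9 CPM per kb) and sixth in Du145-CbzR (0.386 CPM per kb), where GNAI1 took the second place at 12.1 CPM per kb. CACNA2D1 and SEMA3D followed in Du145-CbzR at 4.76 ± 0.26 and 3.64 ± 0.28 CPM per kb, ahead of PCLO at 2.95 ± 0.01 (SD, n = 2 each), and no neighbours in that order of levels overlapped.

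Genes whose pattern was most like the mean of the members were sought among 14887 genes with a mean of at least 1 CPM. The mean of the 7 members' standardised log2 CPM over the 6 libraries correlated best with SFXN1, TERF2IP, EREG, FAM13B and GLTP (Pearson's r = 0.998 for SFXN1 and 0.997 for GLTP), none of them on chromosome 7. As 395 genes had r above 0.95 over these 6 libraries, which fall into 3 pairs, the likeness singles out little. SFXN1 was at 90.5 CPM in Du145-CbzR, 74.1 in Du145-DtxR and 63.7 in Du145-P, whereas GNAI1, SEMA3C and PCLO were lowest in Du145-DtxR. Individual members differed widely in their own r with the members' mean, of which each is itself a part. This r was 0.998 for SEMA3D, 0.82 for SEMA3C, 0.71 for GNAI1, 0.54 for CACNA2D1, 0.49 for SEMA3A, 0.48 for PCLO and -0.89 for SEMA3E.

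The comparison of Du145-DtxR with Du145-P asks whether the interval also differed in the other resistant line. It shares the Du145-P libraries with the comparison that chose the members, but not the resistant ones. Of the 7 members tested with edgeR's quasi-likelihood test, 3 were higher, 3 were lower and 1 was not called at an adjusted p under 0.05, and their median log2 fold change was -0.12 against -0.02 over all genes. Of all 18218 genes, 63.1% were called, 31.1% higher and 32.0% lower. Thus the members did not share a direction in Du145-DtxR, and their share of calls can be read only against a background in which most genes were called. Without SEMA3A, whose filter fixed its direction, 2 were higher and 3 lower.

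CACNA2D1 rose 2.19-fold in Du145-DtxR (log2 1.13, SE 0.07, edgeR adjusted p = 6.38e-08), and SEMA3D rose 2.56-fold (log2 1.35, SE 0.14, edgeR adjusted p = 4.3e-06). PCLO fell to 8.81 ± 0.02 CPM in Du145-DtxR, against 25.5 ± 0.2 CPM in Du145-P (SD, n = 2 each), the largest decrease among the members tested (log2 -1.53, SE 0.07, edgeR adjusted p = 7.55e-09). GNAI1 fell to 25.9 ± 1.1 CPM in Du145-DtxR, against 41.2 ± 1.1 CPM in Du145-P (log2 -0.67, SE 0.06, edgeR adjusted p = 1.42e-06). In each of these genes the libraries of the lines did not overlap.

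SEMA3C fell slightly, 1.14-fold (log2 -0.18, SE 0.05, edgeR adjusted p = 0.0111). The call was lost without Du145-DtxR replicate 1 (log2 -0.12) and without Du145-P replicate 1 (log2 -0.13). SEMA3E had a log2 fold change of -0.12 (SE 0.05) and did not pass the test by edgeR (adjusted p = 0.0524), although its libraries did not overlap. SEMA3A had a log2 ratio of counts of 3.60, with a 95% counting interval of 2.40 to 5.10, and is given without its p since the filter set its direction. CD36, under the filter, had a log2 ratio of counts of -4.29 (95% counting interval -9.66 to -1.66). ABCB1, the gene that places the interval, had 12366 and 12292 counts in Du145-DtxR, against 7 and 14 counts in Du145-P.

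**Figure D2:**
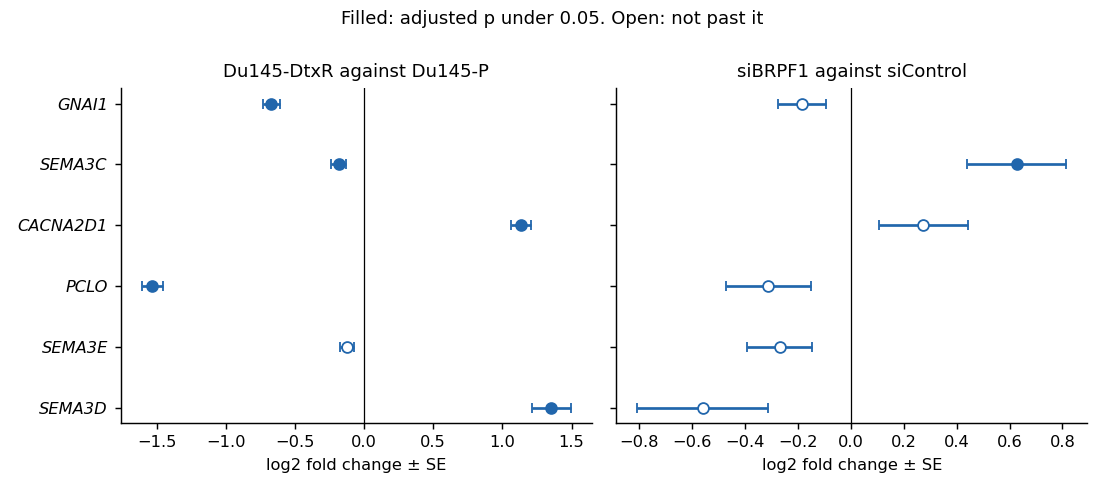
Fitted log2 fold change with its SE for the members tested in Du145-DtxR against Du145-P (left) and in siBRPF1 against siControl (right), each panel on its own axis. In the left panel PCLO is at -1.53 and CACNA2D1 and SEMA3D are above 1, and in the right panel only SEMA3C, at 0.63, is filled (adjusted p under 0.05). SEMA3A is not drawn, as the filter set its direction on the left and it was not tested on the right.

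Position along the chromosome was then described from the same fit. Beyond SEMA3D, all 11 genes tested up to and including ABCB1 had log2 fold changes above 0 in Du145-CbzR against Du145-P, at 2.10 to 12.95 with a median of 3.07. Some of them, such as GRM3 and ABCB4, passed the filter on low counts only through Du145-CbzR, so their direction was in part set by the filter. With a mean of at least 1 CPM, 8 genes were above 0 there. Of the 78 genes tested in the 10 Mb on the centromere side of GNAI1, 32 were above 0 and 46 below (median -0.10), and of the 46 tested in the 10 Mb on the telomere side of ABCB1, 2 were above 0 and 44 below (median -1.05). On the rest of 7q, 45 of 441 were above 0 and 396 below (median -0.95), and on 7p 127 of 308 were above 0 and 181 below (median -0.08). These counts describe the sign of the fitted values and are no test, since the comparison chose the interval.

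At the centromere edge, the nearest outside gene tested, MAGI2, was at 4.26 CPM in Du145-CbzR, 2.95 in Du145-DtxR and 2.51 in Du145-P (log2 0.76 for Du145-CbzR against Du145-P, against 1.57 for GNAI1 just inside). PHTF2, TMEM60, RSBN1L and PTPN12, the next ones outward, had log2 fold changes of 0.38, 0.25, 0.05 and -0.20 in that comparison. At the other edge, the genes just beyond SEMA3D were GRM3, which had few counts (0.568 CPM in Du145-CbzR, 0.0369 in Du145-DtxR and 0.0162 in Du145-P), and ELAPOR2, at 338.7 CPM in Du145-CbzR, 25.9 in Du145-DtxR and 44.8 in Du145-P. DMTF1, TMEM243 and CROT had log2 fold changes of 2.10, 2.44 and 2.57 for Du145-CbzR against Du145-P and ABCB4, next to ABCB1, had 6.08. Past ABCB1 the sign turned, with RUNDC3B, which overlaps ABCB1, at -0.92, SLC25A40 at -1.05, DBF4 at -0.70, ADAM22 at -1.51 and SRI at -0.76.

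ABCB1 was at 2809 and 2722 CPM in Du145-CbzR, against 454.5 and 454.1 CPM in Du145-DtxR and 0.227 and 0.464 CPM in Du145-P. Both resistant lines were far above the parental line for ABCB1. In Du145-DtxR against Du145-P, 3 of the 11 genes tested beyond SEMA3D were called higher and 2 lower (median 0.07), beside the 31.1% higher and 32.0% lower over all genes, with ELAPOR2 lower (log2 -0.79, edgeR adjusted p = 2.77e-07) and DMTF1, TMEM243 and CROT at -0.06, 0.07 and 0.06 and not called (edgeR adjusted p = 0.414, 0.474 and 0.552). Of the 46 genes telomeric of ABCB1, 14 were called higher and 19 lower in Du145-DtxR (median -0.05). No test of the difference between the 2 resistant lines is given for these genes, since the Du145-CbzR libraries chose the interval.

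**Figure D3:**
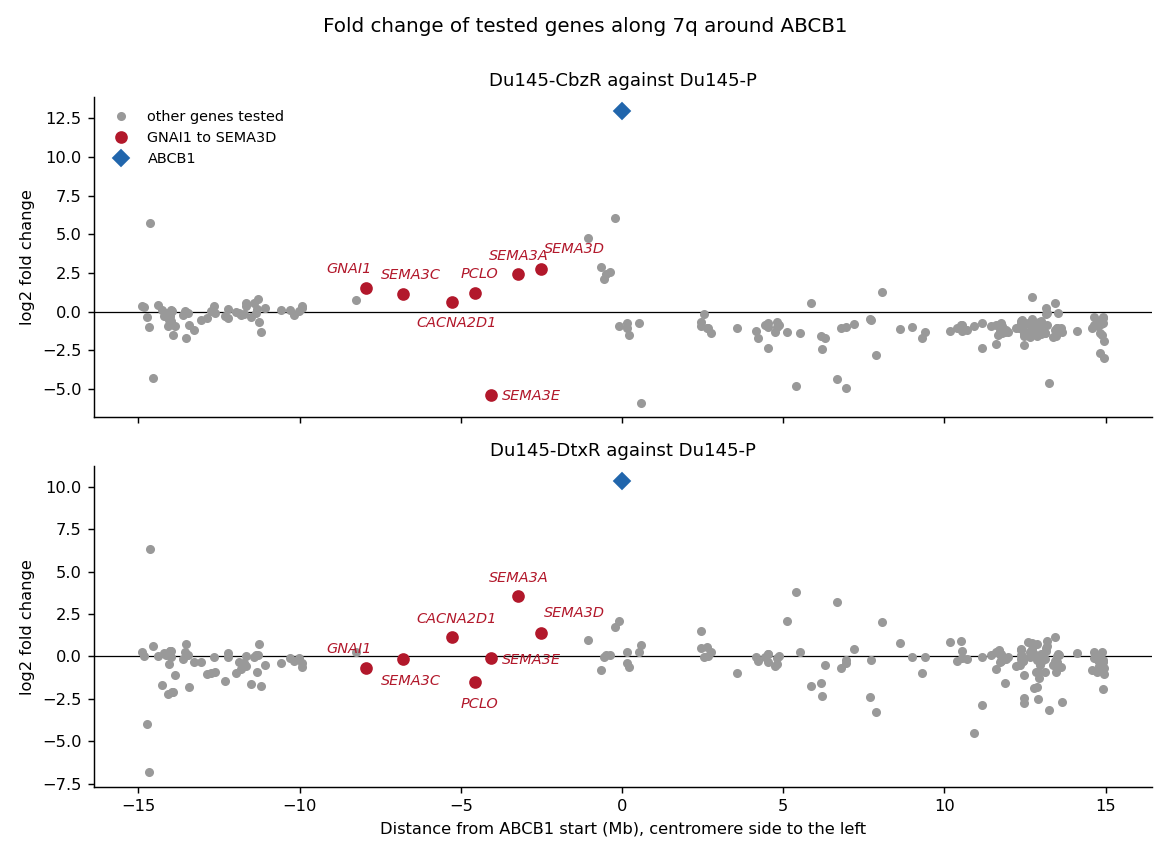
Fitted log2 fold change of each tested protein-coding gene by the distance of its annotated transcription start, on its own strand, from that of ABCB1, in Mb, for Du145-CbzR against Du145-P (top) and Du145-DtxR against Du145-P (bottom), with the members in red and ABCB1 in blue. In the top panel 6 members lie above 0 and SEMA3E lies at -5.36, and the grey genes to the right of ABCB1 lie mostly below 0, whereas in the bottom panel members lie on both sides of 0.

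The siRNA experiment asks what depletion of BRPF1 changed in Du145-DtxR cells, and none of its libraries was used to choose the members. BRPF1 was at 8.96, 8.67 and 8.19 CPM in siBRPF1 cells, against 29.4, 30.6 and 31.0 CPM in siControl cells (log2 -1.82, SE 0.10, edgeR adjusted p = 1.79e-06). Of the 6 members tested, only SEMA3C was called, as higher, and none was called lower by edgeR, where 3 had an unadjusted p under 0.05 and DESeq2 called none. Of all 15704 genes tested, 26.7% were called, 11.6% higher and 15.1% lower, and the members' median log2 fold change was -0.23 against -0.01 over all genes. In this fit, which does not pair the libraries, the members' share of calls was thus not above the background. With replicate number as a term, 4 of the 6 were called, and the share over all genes in that fit is not given here.

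SEMA3C was at 103.2, 70.9 and 111.0 CPM in siBRPF1 cells, against 49.1, 56.3 and 79.2 CPM in siControl cells. The groups overlapped, as siBRPF1 replicate 2 lay below siControl replicate 3. The log2 fold change was 0.63 (SE 0.19, edgeR adjusted p = 0.0287, higher in 2 of 3 siBRPF1 libraries than in every siControl library). The call was lost without siControl replicate 1 (log2 0.50, adjusted p = 0.0864) or 2 (0.58, adjusted p = 0.101), and without siBRPF1 replicate 1 (0.57, adjusted p = 0.103) or 3 (0.50, adjusted p = 0.0807). DESeq2 did not call it (adjusted p = 0.0813).

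GNAI1 was at 18.8, 19.6 and 20.5 CPM in siBRPF1 cells, against 21.5, 21.8 and 23.5 CPM in siControl cells, groups that did not overlap but that did not pass the test (log2 -0.18, SE 0.09, edgeR adjusted p = 0.163). SEMA3D was at 2.58, 1.38 and 2.12 CPM in siBRPF1 cells, against 2.87, 2.48 and 3.64 CPM in siControl cells (log2 -0.56, SE 0.25, edgeR adjusted p = 0.117). SEMA3E was at 39.5, 29.3 and 37.3 CPM in siBRPF1 cells, against 39.1, 40.9 and 47.8 CPM in siControl cells (log2 -0.27, SE 0.12, edgeR adjusted p = 0.128). In SEMA3D and SEMA3E, 1 siBRPF1 library lay above the lowest siControl library.

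CACNA2D1 was at 24.3, 19.7 and 30.6 CPM in siBRPF1 cells, against 17.9, 18.7 and 25.2 CPM in siControl cells (log2 0.27, SE 0.17, edgeR adjusted p = 0.251). PCLO was at 7.29, 6.76 and 7.73 CPM in siBRPF1 cells, against 7.18, 8.74 and 11.1 CPM in siControl cells (log2 -0.31, SE 0.16, edgeR adjusted p = 0.176). Both overlapped between the groups. SEMA3A had 4, 6 and 2 counts in siBRPF1 cells, against 4, 5 and 9 counts in siControl cells, and was not tested. CD36, GNAT3 and HGF had no count in either group, which allows up to 0.0581 CPM in siBRPF1 cells and 0.0600 CPM in siControl cells. ABCB1 did not pass the test (log2 -0.06, SE 0.10, edgeR adjusted p = 0.725).

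**Figure D4:**
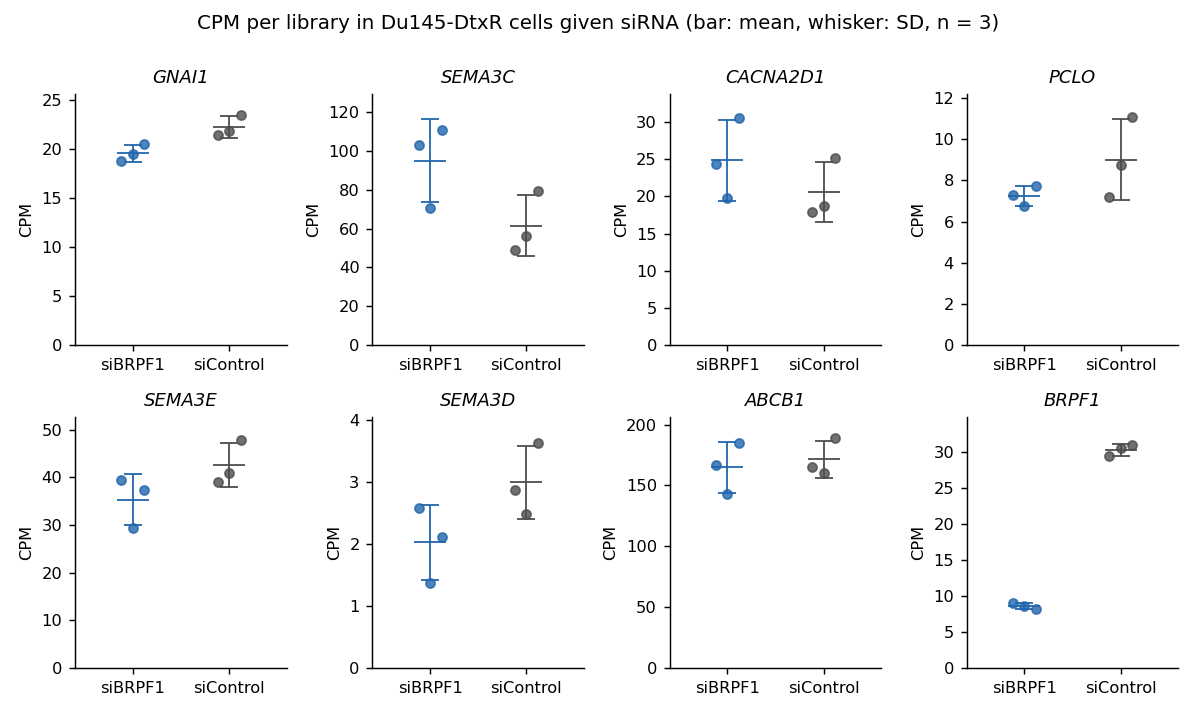
CPM per library (points), mean (bar) and SD (whisker, n = 3) of the 6 members tested, of ABCB1 and of BRPF1 in Du145-DtxR cells that received siBRPF1 or siControl, each panel on its own linear axis from 0. BRPF1 falls to 8.19 to 8.96 CPM, SEMA3C lies at 70.9 to 111.0 CPM with siBRPF1 and 49.1 to 79.2 CPM with siControl, and the groups of ABCB1 overlap.

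The genes that work with the members lie outside the interval, and their own chromosomal positions were not taken into account. They were counted in the comparisons that the choice of members left free or partly free. Of the 3 class 3 semaphorins outside the interval, SEMA3B, SEMA3F and SEMA3G, all 3 were called lower in Du145-DtxR by edgeR. Over all genes, 63.1% were called there and 32.0% were lower, and 3 genes are few to set against that. With siBRPF1 the 3 did not pass the test (edgeR adjusted p = 0.123, 0.0564 and 0.948). SEMA3G, the most changed, was at 1.14 ± 0.06 CPM in Du145-DtxR, against 8.43 ± 0.20 CPM in Du145-P (SD, n = 2 each, log2 -2.88, edgeR adjusted p = 9.5e-09). It was at 14.9 ± 0.4 CPM in Du145-CbzR, so that this gene, too, was lower in one resistant line than in the parental line and higher in the other.

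Of the 10 semaphorin receptor genes tested, 3 rose and 6 fell in Du145-DtxR in the comparison with Du145-P. PLXND1, the receptor of SEMA3E, fell to 22.7 ± 2.1 CPM in Du145-DtxR, against 53.3 ± 1.0 CPM in Du145-P (log2 -1.23, edgeR adjusted p = 3.45e-08), and was at 47.6 CPM in Du145-CbzR. PLXNA2 fell further (log2 -2.94, edgeR adjusted p = 1.06e-07), whereas PLXNA1 rose (log2 0.78, edgeR adjusted p = 3.55e-07). NRP1 and NRP2, the neuropilins, rose by 0.19 and 0.88 on the log2 scale (edgeR adjusted p = 0.0053 and 9.51e-05). With siBRPF1, 1 receptor was higher and 4 were lower. NRP1 rose to 67.2 ± 7.4 CPM in siBRPF1 cells, against 42.0 ± 6.9 CPM in siControl cells (SD, n = 3 each, log2 0.68, edgeR adjusted p = 0.00259), and NRP2 fell to 11.8 ± 1.2 CPM, against 21.8 ± 5.5 CPM (log2 -0.89, edgeR adjusted p = 0.00312).

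HGF itself had no count, but its receptor was abundant. MET rose to 176.6 ± 10.0 CPM in Du145-DtxR, against 94.3 ± 2.6 CPM in Du145-P (log2 0.91, edgeR adjusted p = 3.2e-08), and to 169.0 ± 23.8 CPM in siBRPF1 cells, against 58.0 ± 12.2 CPM in siControl cells (log2 1.54, edgeR adjusted p = 6.09e-05). It was at 62.0 CPM in Du145-CbzR. Of the 7 genes of HGF activation and its receptor tested in the lines, 3 were higher and 2 lower in Du145-DtxR, with SPINT1, an inhibitor of the HGF activating proteases, lower (log2 -2.41, edgeR adjusted p = 4.96e-09). Of the 9 tested with siBRPF1, 1 was higher and 2 were lower, SPINT1 again (log2 -1.23, edgeR adjusted p = 1.51e-05) and the protease gene PLAU (log2 -0.77, edgeR adjusted p = 8.93e-05).

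Among the other inhibitory G alpha subunits and their partners, 3 of the 11 genes tested rose and 6 fell in Du145-DtxR. GNAI3 was higher (log2 0.61, edgeR adjusted p = 1.56e-06) and GNAI2 lower (log2 -0.45, edgeR adjusted p = 7.43e-06). With siBRPF1, 1 was higher and 2 were lower, led by GNAO1 at 8.62 ± 0.84 CPM in siBRPF1 cells, against 17.4 ± 2.1 CPM in siControl cells (log2 -1.01, edgeR adjusted p = 0.000303). Of the 9 other calcium channel subunit genes tested, 7 were lower in Du145-DtxR and the other 2 were not called, the opposite direction to CACNA2D1. CACNA2D2, an auxiliary subunit gene of the same family, fell to 1.70 ± 0.01 CPM in Du145-DtxR, against 21.2 ± 0.5 CPM in Du145-P (log2 -3.64, edgeR adjusted p = 1.28e-10), and fell with siBRPF1 too (log2 -0.94, edgeR adjusted p = 0.00169), where 5 of 8 subunit genes were lower and the other 3 were not called.

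Of the 8 active zone genes tested beside PCLO, 5 were higher and 3 lower in Du145-DtxR. RIMS2 rose (log2 0.98, edgeR adjusted p = 1.08e-07) while BSN, the scaffold most like PCLO, fell with it (log2 -1.89, edgeR adjusted p = 1.28e-06). With siBRPF1, BSN was the 1 gene of 7 that was called (log2 -0.94, edgeR adjusted p = 0.00814). Of the 16 genes of fatty acid uptake and CD36 ligands, 6 were higher and 7 lower in Du145-DtxR, among them FABP5, a fatty acid binding protein (log2 1.41, edgeR adjusted p = 2.98e-08), and SLC27A1, a fatty acid transporter (log2 -1.26, edgeR adjusted p = 1.03e-06). With siBRPF1, 2 of 15 were higher and 4 lower, SLC27A1 among the lower ones (log2 -0.73, edgeR adjusted p = 0.00104). The shares of these lists that were called in Du145-DtxR stand against the 63.1% of all genes called there (31.1% higher and 32.0% lower). Those with siBRPF1 stand against 26.7% (11.6% higher and 15.1% lower).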

How the data were processed

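RNA was sequenced from Du145-CbzR, Du145-DtxR and Du145-P cells and from Du145-DtxR cells given siBRPF1 or siControl, 12 libraries in 2 tables. The authors aligned the reads with STAR to GRCh38 and quantified them with Salmon, and versions are not given in the sources used here. The deposited tables are named for TPM, but their columns sum to different totals and 58.4% and 62.9% of values above 0 are exactly whole numbers (no tolerance), so they were read as estimated counts deposited by the authors and rounded. The count test of the plan was used and its TPM branch was not.

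The tables have 60660 rows, of which 44 list Y copies of pseudoautosomal genes and were summed with the X copy. Genes were filtered with filterByExpr (edgeR 4.0.16, R 4.3.3; 18218 and 15704 kept), scaled by TMM and tested with the quasi-likelihood test, the 6 libraries of a table in 1 fit, with no test between tables. SE was obtained as the fold change on the log2 scale over the root of the F statistic, which understates the error of genes with few counts. Adjustment of p-values was by Benjamini-Hochberg across every gene in the fit, and a call is an adjusted p under 0.05. Intervals of count ratios are exact at 95% and cover counting error only. Scripts were tested on simulated data. Some marker genes are not reported here. The members and gene lists were chosen with earlier results of these data known. The genes named are all members, ABCB1, BRPF1, up to 4 genes per list with the smallest adjusted p, every gene tested from SEMA3D to ABCB1 that codes for protein, 5 neighbours on each side, and the 5 genes most alike in pattern. Alternatives were DESeq2 1.42.0, its size factors, no filter, a mean of at least 1 CPM, only the groups compared, replicate number as a term, and each library left out.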

Additional observations from a re-analysis of the deposited data

Results flagged for a closer look

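For 3 members, both Du145-CbzR libraries lay above and both Du145-DtxR libraries below the Du145-P libraries, so the resistant lines moved in opposite directions. The share of all genes with this pattern is not given here. Against Du145-P, 63.1% of all genes were called in Du145-DtxR and 50.7% in Du145-CbzR, so nothing is read from the count of 3. For SEMA3C the decrease in Du145-DtxR was slight, at log2 -0.18, and -0.12 without Du145-DtxR replicate 1. The log2 fold change of Du145-CbzR against Du145-P minus that of Du145-DtxR against Du145-P was 2.24 for GNAI1, 1.35 for SEMA3C and 2.76 for PCLO. No test of this difference is given, because the Du145-CbzR libraries chose the interval, so it stands as a description and counts as not tested.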

How the results depend on the processing

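In Du145-DtxR against Du145-P, 6 members were called, and 5 to 7 under the 12 alternatives. CACNA2D1, GNAI1, PCLO and SEMA3D kept their direction and their call in all 12, and SEMA3E was called with a mean of at least 1 CPM only (log2 -0.15, edgeR adjusted p = 0.0155). The count of 7 with no filter includes CD36. In some fits with a library left out, CD36 passed the filter through Du145-P only, the line where it was highest. The direction of CD36 in those fits was set by the filter. Without Du145-DtxR replicate 1, CD36 was called and SEMA3C was not, so similar counts can hide a change of members. In siBRPF1 against siControl, 1 member was called, 0 by DESeq2, and 0 to 2 when a library was left out (SEMA3C and CACNA2D1 without siControl replicate 3). With the replicate number as a block, 4 were called there (SEMA3C, CACNA2D1, SEMA3E and SEMA3D) and 6 in Du145-DtxR against Du145-P. Shares over all genes in these alternative fits are not given here. A change in the count is thus not read as a result about the members. Whether the replicate numbers pair the samples cannot be settled here. Deviations of same-numbered siRNA libraries correlated at 0.09, 0.19 and 0.39. Those of siBRPF1 replicates 1 and 3 correlated best with the siControl library of the same number. Those of siBRPF1 replicate 2 correlated best with siControl replicate 1 (0.23). The block lowered the SE of SEMA3C from 0.19 to 0.10.

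The median log2 fold change of the members in Du145-CbzR against Du145-P, 1.23, was 1.24 with DESeq2 size factors, by the DESeq2 test and with only the groups compared, 1.20 with a mean of at least 1 CPM, and 1.22 to 1.25 with a library left out. Against Du145-DtxR it was 1.35, 1.40 with a mean of at least 1 CPM, and 1.23 to 1.41 with a library left out. SEMA3A was removed by a mean of at least 1 CPM, and its direction was set by the filter in the other fits that had one. With that mean, the genes above 0 in Du145-CbzR against Du145-P numbered 8, against 11, from beyond SEMA3D to ABCB1. They numbered 0, against 2, telomeric of ABCB1 and 29, against 45, on the rest of 7q. No result reversed. With the siRNA table, a fit of only the groups compared is the fit already given, and the TPM alternatives (pseudocounts) were not run. With 2 libraries per line, leaving one out assumes that the lone library varies like the other groups. At these depths, genes of a few counts, such as SEMA3A and CD36, have ratios with wide counting intervals.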

Other observations

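The siControl libraries and the untreated Du145-DtxR libraries hold the same line in separately normalized tables, so their levels are given side by side without a comparison. SEMA3C was at 49.1 to 79.2 CPM in siControl cells and 242.8 to 262.0 CPM in Du145-DtxR, SEMA3E at 39.1 to 47.8 and 104.0 to 108.2 CPM, and CACNA2D1 at 17.9 to 25.2 and 49.0 to 50.9 CPM. GNAI1 was at 21.5 to 23.5 CPM in siControl cells and 25.1 to 26.7 CPM in Du145-DtxR, and PCLO at 7.18 to 11.1 and 8.79 to 8.82 CPM. SEMA3D was at 2.48 to 3.64 CPM in siControl cells and 8.31 to 10.5 CPM in Du145-DtxR, and SEMA3A, with few counts, at 0.250 to 0.528 and 1.11 to 1.29 CPM. ABCB1 was at 160.3 to 188.6 and 454.1 to 454.5 CPM. GNAT3 and HGF were at 0 in both.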
